A study of Mus musculus with 7 samples.

Results

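The genes described here are 57 developmental transcription factor genes that carry no homeobox: forkhead, Sox, Gata, T-box and basic helix-loop-helix (bHLH) genes, and the smaller Tfap2, Zic, Gli and Ebf families with Wt1, Bnc1 and Bcl11b. They were chosen by name, and all 57 were found among the 27179 genes of the count table by Entrez number and RefSeq symbol. RNA came from alveolar macrophages, the resident phagocytes of the airspaces, sorted from lung by flow cytometry. Recipients were C57BL/6-Ly5.1 mice that had been lethally irradiated. In the WT group (4 libraries) 90% of the donor marrow was wild type Ly5.2, and in the Suz12 cKO group (3 libraries) 90% was Suz12 conditional knockout Ly5.2. Both groups also received 10% wild type Ly5.1 marrow, so each mouse carried a source of cells with an intact Suz12 gene. No source used here gives the Cre line, the deleted exons, the age of the mice or the gates of the sort, and the design text calls the libraries biological replicates.

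Suz12 is a core subunit of polycomb repressive complex 2 (PRC2), which places a repressive methyl mark on histones at genes that are kept off in a given cell type. Genes of this kind are textbook PRC2 targets: they encode DNA-binding proteins that specify germ layers, organs and nerve or muscle fates in the embryo, and mature macrophages use few of them. Forkhead, Sox, Gata, T-box and bHLH proteins are named for their DNA-binding domains or motifs, and members of each family often act in the same tissues.

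Libraries held 48104653 to 79281431 counts, where the design text states 14000000 to 20000000 reads per sample. The smallest total is 2.41 times the largest stated number, so a count here cannot be read as 1 independent read. Suz12 itself stood at 22.1, 23.6 and 15.1 CPM (counts scaled to 1e6 per library, after TMM) in Suz12 cKO replicates 1, 2 and 3 and at 56.3 to 73.9 CPM in WT (log2 fold change -1.65, SE 0.18, edgeR adjusted p = 0.00134). All 18 alveolar macrophage markers, among them Itgax, Siglecf and Chil3, had counts in every library, with summed levels of 69880 to 74240 CPM in Suz12 cKO and 59350 to 74470 CPM in WT. Haemoglobin transcripts reached 56.6 to 192 CPM in Suz12 cKO replicates 1 and 2 and WT replicate 2 and lay between 2.29 and 5.17 CPM elsewhere. Libraries of the first kind are termed high in tissue RNA below, a name set by haemoglobin alone. Summed epithelial, smooth muscle and pericyte, B cell and natural killer markers were also higher in each of them than in any other library. Summed fibroblast, endothelial, mesothelial, T cell and mast cell markers overlapped between the 2 kinds. The counts of weakly expressed genes did not thin out towards 1. They peaked at 7 to 16 counts in 6 libraries and at 30 counts (0.42 CPM) in Suz12 cKO replicate 3, so the number of starting molecules behind such counts is not known.

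Of the 57 genes, 15 passed the low-count filter and were tested, 24 had counts but were not tested, and 18 had no count in any library. At an edgeR adjusted p under 0.05, Foxc1, Gata3, Gata6, Tbx15 and Zic1 rose in Suz12 cKO, 0 genes fell and 10 were not called. At an unadjusted p under 0.05 the numbers were 10 higher and 0 lower, and DESeq2 called 7 higher and 0 lower (9.65% of genes were called higher by it). The 5 calls are 33.3% of the tested members, where 6.28% of all 14436 tested genes were called higher (4.02% were called lower and 10.3% in either direction). Each Suz12 cKO library was above each WT library for 9 of the 15, or 60%, against 14.1% of all tested genes. The median log2 fold change was 4.42 over the 15 and 0.00 over all tested genes. With the 3 genes that had no WT count set at their lower bounds it was 2.01. Of the 15, 12 reached the filter's level of 0.156 CPM in fewer than 3 WT libraries, so most entered the test through their Suz12 cKO counts, and these shares describe only the genes so selected. Over all 57, the Suz12 cKO mean was above the WT mean for 29 and below it for 10. For all genes of the table these numbers were 9377 and 8656, with 9145 at no count. With no filter, 7 of 39 members were called higher by edgeR, against 4.79% of genes.

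The number of members called higher was 1 without Suz12 cKO replicate 1 or 2, 3 without Suz12 cKO replicate 3 and 2 without WT replicate 3. Foxc1 was called in each of these 4 fits, and its edgeR adjusted p was between 0.00257 and 0.02 over all 7 fits that left out a library.

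**Figure D1:**
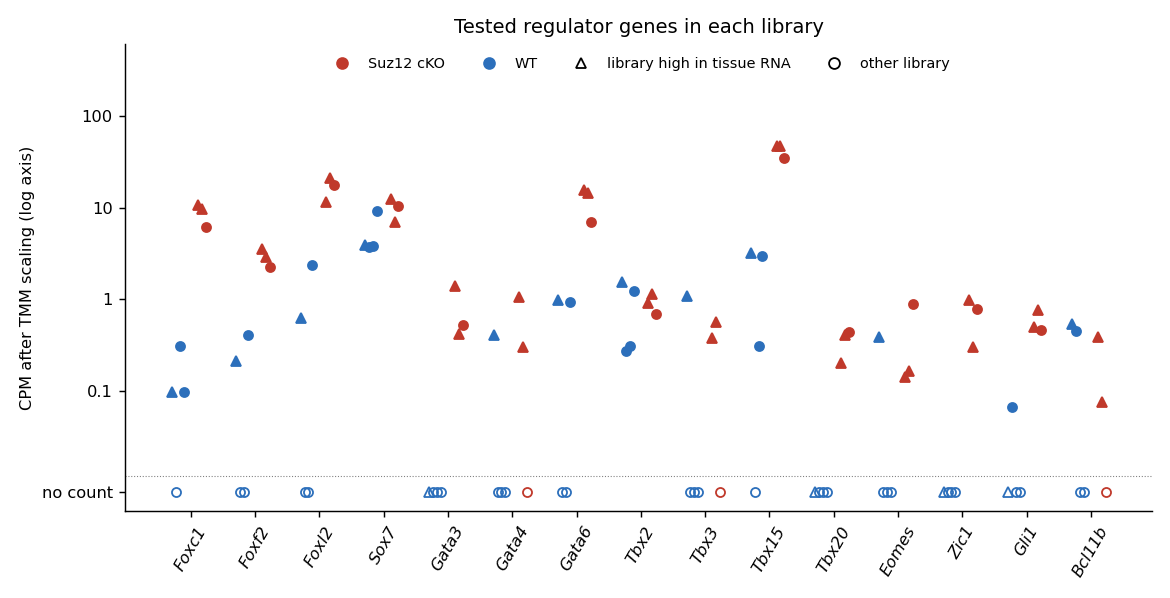
CPM after TMM scaling (log axis) of the 15 tested genes in each of 7 libraries, red for Suz12 cKO and blue for WT, with triangles for the 3 libraries high in tissue RNA and open symbols on the bottom line for libraries with no count. The red points lie above all blue points for 9 genes, and for Sox7, Tbx2, Tbx3, Gata4, Eomes and Bcl11b the colours overlap.

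PRC2 targets are typically rich in CpG dinucleotides near their start, and the windows below let a reader compare genes that rose with genes that did not. RefSeq promoter windows were on hand for 35 of the 57 genes. For each, CG was counted in the 250 bases before the listed start. The capitals mark CG, and all are written on the strand of the gene in GRCm38.p6. Foxc1, Gata3 and Zic1 rose, Foxl2 was high in Suz12 cKO without being called, and Neurod1, a neuronal bHLH gene, had no count in any library.
Foxc1 (chr13:31806396-31806645, plus strand): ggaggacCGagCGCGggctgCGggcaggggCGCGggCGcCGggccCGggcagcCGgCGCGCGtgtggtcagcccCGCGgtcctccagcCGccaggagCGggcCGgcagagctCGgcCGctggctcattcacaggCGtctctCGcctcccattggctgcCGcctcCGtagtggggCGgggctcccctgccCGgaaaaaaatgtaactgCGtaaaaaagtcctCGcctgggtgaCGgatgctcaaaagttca
Foxl2 (chr9:98955357-98955606, plus strand): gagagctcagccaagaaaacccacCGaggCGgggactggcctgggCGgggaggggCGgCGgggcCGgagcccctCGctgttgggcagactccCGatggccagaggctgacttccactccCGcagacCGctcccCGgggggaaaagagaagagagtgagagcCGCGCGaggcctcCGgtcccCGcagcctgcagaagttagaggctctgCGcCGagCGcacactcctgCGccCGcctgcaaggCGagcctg
Gata3 (chr2:9878601-9878850, minus strand): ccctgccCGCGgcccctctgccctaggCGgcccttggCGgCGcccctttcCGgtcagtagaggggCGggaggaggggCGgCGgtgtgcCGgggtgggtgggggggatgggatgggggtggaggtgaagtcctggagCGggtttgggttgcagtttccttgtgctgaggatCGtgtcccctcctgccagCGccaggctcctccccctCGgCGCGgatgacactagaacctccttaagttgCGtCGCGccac
Zic1 (chr9:91365769-91366018, minus strand): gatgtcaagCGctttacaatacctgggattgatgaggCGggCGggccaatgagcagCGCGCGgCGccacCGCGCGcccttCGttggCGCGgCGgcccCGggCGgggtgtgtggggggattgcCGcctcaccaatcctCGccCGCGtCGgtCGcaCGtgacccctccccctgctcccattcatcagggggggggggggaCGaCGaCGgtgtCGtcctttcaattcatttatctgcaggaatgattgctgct
Neurod1 (chr2:79456637-79456886, minus strand): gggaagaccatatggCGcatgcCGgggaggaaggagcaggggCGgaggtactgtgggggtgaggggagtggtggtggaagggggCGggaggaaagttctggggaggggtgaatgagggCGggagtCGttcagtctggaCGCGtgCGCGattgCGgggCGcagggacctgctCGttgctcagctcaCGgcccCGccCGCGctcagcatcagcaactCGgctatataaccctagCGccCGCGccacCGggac
These windows hold 29, 22, 19, 27 and 22 CG in the order printed. The Gata3 window is at a start inside the annotated span of the gene, and the Zic1 window lies within the annotated span of its neighbour Zic4. The median was 19 CG over the 35 members, 9 over 18458 genes with a window and 15 over the tested genes with one. At least 10 CG were found in 77.1% of the members' windows and in 49.8% of all windows. The 3 called genes with a window had 19, 27 and 29 CG, within the range of the silent members. The 13 members with no count had a median of 15 and a range of 5 to 43. Gata6 and Tbx15, which also rose, had no window. Among all tested genes, those called higher had a median of 16 and those called lower 15.

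**Figure D2:**
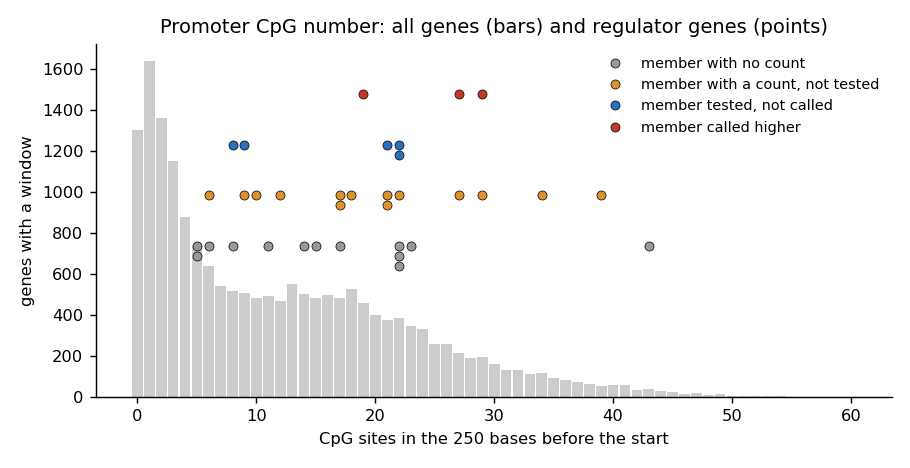
Number of CG in the 250 bases before the start (x axis) for 18458 genes (grey bars, number of genes on the y axis) and for the 35 members with a window (points, placed in rows by outcome, so their height carries no value). Members with no count span 5 to 43 CG, and the 3 called higher stand at 19, 27 and 29.

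Among the 10 forkhead genes, Foxc1, Foxl2 and Foxf2 were the 3 tested, and all 3 were higher in every Suz12 cKO library than in any WT library. Foxc1 (Entrez 17300, chromosome 13, 31806646 to 31810635 in GRCm38), which acts in the mesenchyme of the eye, skeleton and vessels, stood at 10.8, 9.61 and 6.21 CPM in Suz12 cKO. In WT replicates 1 to 4 it stood at 0.0996, 0.0985, 0 and 0.309 CPM. The means were 8.87 ± 2.37 and 0.127 ± 0.13 CPM (SD, n = 3 and n = 4), for a log2 fold change of 6.15 (SE 0.85, edgeR adjusted p = 0.00328). In a bulk sample, a larger share of cells with the transcript and more transcript per cell cannot be told apart.

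Foxl2, a regulator of ovary and eyelid development (Entrez 26927, chromosome 9, 98955607 to 98958126), stood at 11.5, 21.0 and 17.5 CPM in Suz12 cKO. It stood at 2.39 and 0.624 CPM in WT replicates 1 and 2 and had no count in replicates 3 and 4. Its log2 fold change of 4.42 (SE 1.26) was not called (edgeR adjusted p = 0.0587). The adjusted p was 0.147 with DESeq2, 0.164 with robust dispersion and 0.12 to 0.164 without a Suz12 cKO library, and Foxl2 was called without WT replicate 1 alone among the fits that left out a library (6.26, adjusted p = 0.0245). Foxf2, which acts in gut and vessel wall mesenchyme and lies 175 kb from Foxc1, stood at 3.58, 2.91 and 2.28 CPM against 0.411, 0.213, 0 and 0 CPM. It was not called, at 4.18 on the log2 scale (SE 1.35, edgeR adjusted p = 0.0893). DESeq2 called it (adjusted p = 0.00298). Foxf2 and Foxl2 had WT counts in replicates 1 and 2, and Foxc1 had them in replicates 1, 2 and 4.

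The other 7 forkhead genes were not tested. Foxa2 and Foxe1, of endoderm and thyroid, had no count. Foxa1, Foxc2, Foxd1, Foxd3 and Foxf1 had at most 39 counts in a library. Foxc2, the closest relative of Foxc1, had 1 count in Suz12 cKO replicate 1 and 10 counts in WT replicate 3, so the rise of Foxc1 had no counterpart there at this depth.

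All 3 Gata genes with counts were tested, and Gata3 and Gata6 rose. Gata factors bind the sequence for which they are named: Gata3 directs T cells and innate lymphoid cells, and Gata4, Gata5 and Gata6 act in heart, gut and lung endoderm, Gata6 also in peritoneal macrophages. Gata6 (Entrez 14465, chromosome 18, 11052510 to 11085636) stood at 15.6, 14.4 and 7.04 CPM in Suz12 cKO. In WT it stood at 0.934 and 0.985 CPM in replicates 1 and 2, with no count in replicates 3 and 4. Gata6 rose by 4.65 on the log2 scale (SE 1.19, edgeR adjusted p = 0.0411), and every Suz12 cKO library was above every WT library. The call did not hold with DESeq2 (adjusted p = 0.0884), with robust dispersion (0.115) or without any library other than WT replicate 2 (0.0509 to 0.133).

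Gata3 (Entrez 14462, chromosome 2, 9857078 to 9887953) had 89, 28 and 38 counts in the Suz12 cKO libraries, or 1.40, 0.426 and 0.532 CPM, and none in the 4 WT libraries. Low counts peak at 7 to 16 in WT. The fold of Gata3 was therefore set against a floor of 48 counts over the WT group (3 times the highest of these peaks). Its pooled Suz12 cKO level was 4-fold this floor, with no error allowed for on the Suz12 cKO side. Gata3 was called higher than in WT (edgeR adjusted p = 0.0332). The call was lost without any of the 3 Suz12 cKO libraries or without WT replicate 1 or 3, with edgeR adjusted p between 0.0583 and 0.14. In Suz12 cKO replicate 3 its 38 counts lie near the peak of 30 counts of that library. Gata3 also marks T cells and, with Bcl11b, is itself in the marker list that follows. The 14 T cell and innate lymphoid markers had summed levels of 6.89 to 21.4 CPM in WT, and of 12.9 and 16.1 CPM in the first 2 Suz12 cKO libraries, with the highest sum of all, 31.7 CPM, in Suz12 cKO replicate 3. In Suz12 cKO replicate 3, 8 of the 14 had no count, Cd3d, Cd3e and Cd3g among them, while Il7r, Cd4 and Tcf7 were at their highest of all libraries there (26.2, 1.16 and 1.67 CPM). Their part in the level of Gata3 was not tested. Gata4 stood at 1.06, 0.305 and 0 CPM against 0.41 CPM in WT replicate 2 and no count in the other WT libraries, and Gata5 had no count.

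Of the 8 T-box genes, 5 were tested and Tbx15 rose. Tbx15, which patterns skeleton, skin and muscle, was the most abundant of all members in Suz12 cKO (Entrez 21384, chromosome 3, 99240348 to 99354260). It stood at 46.8, 47.2 and 34.8 CPM in the Suz12 cKO libraries, against 3.00, 3.23, 0 and 0.309 CPM in WT replicates 1 to 4. The means were 43.0 ± 7.05 and 1.64 ± 1.72 CPM, for a log2 fold change of 4.69 (SE 1.02, edgeR adjusted p = 0.0222). Without Suz12 cKO replicate 1 or 2 the call was lost (adjusted p = 0.0709 and 0.0741), as it was with robust dispersion (0.0941), at log2 fold changes of 4.62, 4.62 and 4.69. Tbx20, a heart regulator, had 13, 27 and 32 counts in Suz12 cKO and none in WT. It was not called (edgeR adjusted p = 0.0622), with a lower bound of 1.86-fold against the same floor. DESeq2 called Tbx20 (adjusted p = 0.0276). Among the edgeR fits that left out a library it was called without WT replicate 2 alone (0.0467), and the rest reached 0.179.

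The other T-box genes did not separate the genotypes. Tbx2, which acts in lung mesenchyme, heart and limb, stood at 0.915, 1.16 and 0.70 CPM in the Suz12 cKO libraries, against 1.23, 1.54, 0.272 and 0.309 CPM in WT (log2 fold change 0.14, SE 0.86, edgeR adjusted p = 0.955). Its relative Tbx3 stood at 0.379, 0.563 and 0 CPM against 1.08 CPM in WT replicate 2 and no count in the other WT libraries. The sign of both changed with some settings. Eomes, of natural killer cells and early endoderm, stood at 0.142, 0.167 and 0.896 CPM and at 0.394 CPM in WT replicate 2 only. Tbx5, of heart and lung, had 20 counts in Suz12 cKO replicate 2 alone. Tbx4 had 2 counts in WT replicate 2, and Tbx1 had none.

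**Figure D3:**
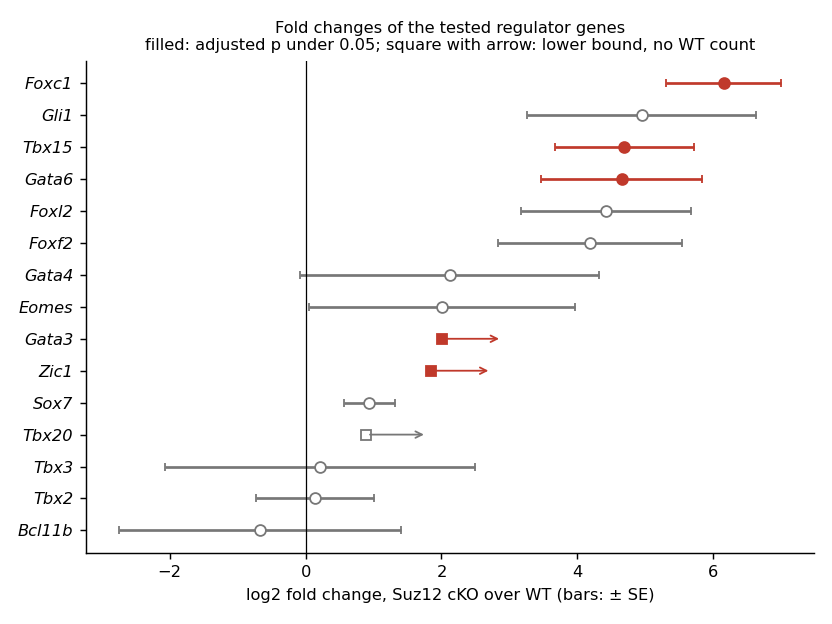
Log2 fold change of Suz12 cKO over WT (x axis) for the 15 tested genes, with bars of ± SE. Filled symbols passed an edgeR adjusted p under 0.05, and squares with arrows are lower bounds for the 3 genes with no WT count. Bcl11b alone lies below 0.

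Sox7 was the only one of the 9 Sox genes tested and the only member at more than 3.5 CPM in every WT library. Sox factors act in stem cells, nerve, cartilage and, for Sox7, Sox17 and Sox18, vessel endothelium. Sox7 stood at 12.5, 6.96 and 10.4 CPM in the Suz12 cKO libraries, against 9.21, 3.94, 3.71 and 3.86 CPM in WT. The ranges overlapped through WT replicate 1, and the log2 fold change of 0.94 (SE 0.38) was not called (edgeR adjusted p = 0.164). Without WT replicate 1 it was 1.37 (adjusted p = 0.0272).

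Sox9, a regulator of cartilage and of the distal lung epithelium in the embryo, had 262 and 247 counts in Suz12 cKO replicates 1 and 2 and no count in the other 5 libraries. It failed the filter, and with no filter edgeR called it. Both libraries with Sox9 are high in tissue RNA, and WT replicate 2, the other library of that kind, had none. Sox17 and Sox18 showed another pattern, with 66 and 80 counts in WT replicate 2 and, for Sox18, 8 counts in Suz12 cKO replicate 2. Both also stand among 16 endothelial markers, of which 1 had no count in WT replicate 2, 5, 2 and 9 in Suz12 cKO replicates 1, 2 and 3, and 7, 10 and 11 in WT replicates 1, 3 and 4. Cdh5 was highest in WT replicate 2 (261 counts) with none in Suz12 cKO replicate 3, whereas Tie1 was highest in Suz12 cKO replicate 3 (171 counts, against 60 in WT replicate 2). Sox2 had 21 counts in Suz12 cKO replicate 2, Sox11 and Sox21 had 11 and 18 in WT replicate 2, Sox1 had single counts, and Sox3 had none.

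None of the 12 bHLH genes had enough counts to be tested, and none had a count in WT. These genes drive nerve (Neurod1, Neurod2, Neurog2, Atoh1, Olig1, Olig2), muscle (Myod1) and mesenchymal or heart fates (Twist1, Twist2, Tcf21, Hand1, Hand2). Hand1 had 20 and 134 counts in Suz12 cKO replicates 1 and 3, Twist1 had 26 and 8 in replicates 1 and 2, Olig1 had 31 in replicate 1, and Olig2 had 1 in replicate 3. The other 8 had no count in any of the 7 libraries, Tcf21 among them, which marks lung fibroblasts.

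Among Zic and Gli zinc finger genes, Zic1 rose. Zic1 (Entrez 22771, chromosome 9, 91358058 to 91365768) is a regulator of the cerebellum and muscle precursors. It had 62, 20 and 57 counts in Suz12 cKO and none in WT (edgeR adjusted p = 0.0357). Its pooled Suz12 cKO level was 3.59-fold the floor used for Gata3. Without any of the 3 Suz12 cKO libraries, or without WT replicate 1 or 3, Zic1 was not called (0.0627 to 0.133). Its annotated span overlaps that of Zic4, which had 46, 27 and 27 counts in Suz12 cKO and none in WT (adjusted p = 0.0443). The strand setting of the counting is not given, so reads in the shared part cannot be told apart. Gli1, an effector of Hedgehog signalling, stood at 0.505, 0.761 and 0.462 CPM in the Suz12 cKO libraries, against 0.0681 CPM in WT replicate 3 only (log2 fold change 4.94, SE 1.68, edgeR adjusted p = 0.104), and DESeq2 called it (adjusted p = 0.0416). It overlaps Arhgap9, a gene at 197 CPM in Suz12 cKO and 214 CPM in WT. Gli2 had no count, Gli3 had 1 count and Zic2 had 1.

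The remaining families showed little. Tfap2a had 6 counts in Suz12 cKO replicate 2 and 3 in WT replicate 1, and Tfap2b and Tfap2c had none. Of the Ebf genes, Ebf1, a regulator of B cells, had 11 counts in Suz12 cKO replicate 2 and 5 in WT replicate 1, Ebf2 had 7 in WT replicate 2 and Ebf3 had none. Bcl11b, a T cell regulator, stood at 0.395, 0.0761 and 0 CPM in the Suz12 cKO libraries, against 0, 0.542, 0.46 and 0 CPM in WT (log2 fold change -0.67, SE 2.08, edgeR adjusted p = 0.90). Bnc1 had 4 counts in Suz12 cKO replicate 2, and Wt1, a mesothelial marker, had none.

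Summed by family, forkhead, T-box, Gata, Sox, bHLH and Zic and Gli genes were higher in every Suz12 cKO library than in any WT library. The sums of Tfap2 genes, of Ebf genes and of Wt1, Bnc1 and Bcl11b overlapped between genotypes. How often sums over other gene groups separate in this way was not counted. Forkhead genes summed to 25.8, 34.5 and 26.2 CPM in the Suz12 cKO libraries, against at most 2.90 CPM in WT. T-box genes summed to 48.5, 49.8 and 36.9 CPM and at most 6.29 CPM, and Gata genes to 18.1, 15.2 and 7.57 CPM and at most 1.39 CPM. Single genes made up most of both sums: Tbx15 averaged 43.0 of 45.1 CPM in Suz12 cKO and Gata6 12.4 of 13.6 CPM. The bHLH sums were 1.22, 0.122 and 1.89 CPM in Suz12 cKO and 0 in WT. In Suz12 cKO replicate 2 the sum is 8 counts of Twist1, near the low-count peak of that library (7 counts). Sox genes summed to 10.4 to 16.6 CPM in Suz12 cKO and 3.71 to 9.21 CPM in WT. Most of this was Sox7, whose own values overlapped between the genotypes. All 57 genes together summed to 112, 112 and 84.2 CPM in Suz12 cKO and to 17.4, 16.5, 4.68 and 4.78 CPM in WT replicates 1 to 4. WT replicates 1 and 2 were above the other WT libraries in this sum. WT replicate 1 was not among the libraries high in tissue RNA.

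**Figure D4:**
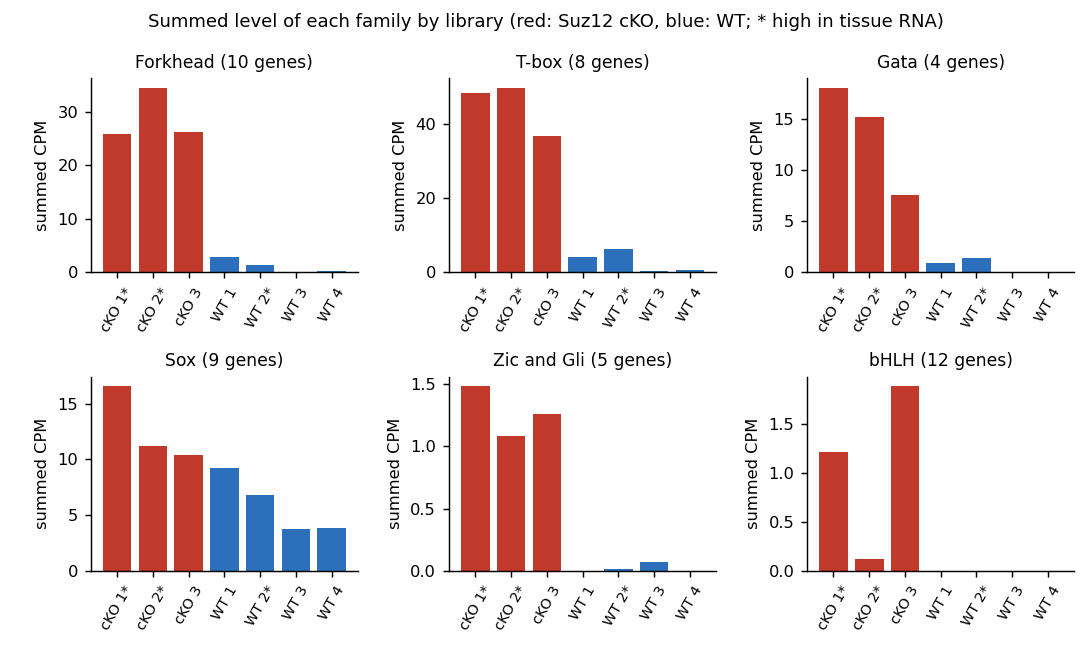
Summed CPM of 6 families (y axis, from 0, with its own scale in each panel) in each library, red for Suz12 cKO and blue for WT, with an asterisk on libraries high in tissue RNA. Suz12 cKO replicate 3, which has no asterisk, stands at 36.9 CPM for T-box genes, against at most 6.29 CPM in WT.

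Levels between genes were compared per kilobase of deposited gene length. In Suz12 cKO the order was Tbx15 (12 ± 1.98 CPM per kb), Foxl2 (6.61 ± 1.91), Gata6 (3.87 ± 1.45), Sox7 (3.04 ± 0.849), Foxc1 (2.22 ± 0.594) and Foxf2 (1.24 ± 0.275), all SD with n = 3. Library values of Foxl2 and Gata6 overlapped, as did those of Gata6, Sox7 and Foxc1, so the order within these groups is not resolved. The other 9 tested genes were at or under 0.259 CPM per kb. In WT the order was led by Sox7 (1.59 ± 0.823 CPM per kb, n = 4), which was above all others in every library. Tbx15 (0.459 ± 0.481), Foxl2 (0.299 ± 0.448) and Tbx2 (0.236 ± 0.181) followed with overlapping values.

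Some members seen in few libraries had counts where tissue RNA was high, and a link between them was not tested. Of the 24 members that had counts but were not tested, 16 had them in libraries high in tissue RNA alone, and 13 had them in 1 library. The same share over all genes not tested was not counted. Suz12 cKO replicates 1 and 2 are among the libraries high in tissue RNA, so tissue RNA and genotype cannot be fully told apart. The number of members with a count was 20, 29 and 17 in Suz12 cKO and 9, 20, 5 and 4 in WT, and WT replicate 2 matched Suz12 cKO replicate 1. Foxc1, Foxf2, Foxl2, Gata6 and Tbx15 were high in all 3 Suz12 cKO libraries, replicate 3 included. In that library 12 of 18 fibroblast, 9 of 16 endothelial, 10 of 17 epithelial, 7 of 8 mesothelial, 5 of 11 smooth muscle and pericyte, 9 of 10 B cell, 8 of 14 T cell and innate lymphoid, 7 of 9 natural killer and 7 of 8 mast cell markers had no count. Sftpc, Col1a1, Col3a1, Dcn, Cdh5 and Kdr were at 0 there. Col14a1, with 803 counts, and Tie1, with 171, were at their highest of all libraries. Pi16, Npnt, Plvap and Pecam1 had 161, 160, 90 and 69 counts in Suz12 cKO replicate 3. These lists include the members Sox17, Sox18, Wt1, Ebf1, Gata3, Bcl11b and Eomes. Of the fibroblast markers, 8 and 5 had no count in Suz12 cKO replicates 1 and 2. In WT replicates 1 to 4 the numbers were 13, 4, 12 and 14. Low counts peaked at 30 in Suz12 cKO replicate 3, so no count there does not show absence.

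Summed fibroblast markers, most of them Gsn, were at 347 to 412 CPM in Suz12 cKO, highest in replicate 3, and 322 to 379 CPM in WT. The fibroblast marker Pdgfra was itself called higher, at 33.4 ± 3.71 against 0.99 ± 1.09 CPM (edgeR adjusted p = 0.0118). It was the only one of 9 tested fibroblast markers that was called. Over all 18, the Suz12 cKO mean was above the WT mean for 8 and below it for 8. Smooth muscle and pericyte markers, led by Cspg4, were at 73.5 to 115 against 48.6 to 86.8 CPM. Endothelial markers, led by Flt1, were at 468 to 586 against 357 to 483 CPM, and epithelial markers, led by Abca3, at 128 to 184 against 132 to 196 CPM. Mesothelial markers, led by Krt19, were at 316 to 358 against 425 to 480 CPM. B cell markers were at 0.504 to 10.5 against 0.186 to 7.35 CPM, natural killer markers at 3.78 to 10.2 against 0.818 to 10.6 CPM, mast cell markers at 0.807 to 1.53 against 0.0622 to 0.492 CPM, and erythroid markers at 7.67 to 201 against 4.43 to 59.3 CPM. The part of these cells in the levels of the other members was not tested.

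The libraries were also split by tissue RNA after the data had been seen, which leaves 1 genotype with a lone library in each fit, so its spread is not measured but taken from the other genotype. Within the 3 libraries high in tissue RNA, edgeR called 6 of 26 tested members higher (Foxc1, Foxf2, Foxl2, Gata6, Sox9 and Tbx15), against 4.73% of genes. Within the 4 low ones 0 of 14 were called and 7 had an unadjusted p under 0.05, against 4.08% of genes called. The log2 fold changes there were 5.51 for Foxc1 (adjusted p = 0.0515), 4.92 for Tbx15 (0.0669) and 4.44 for Gata6 (0.187). When counts were divided by the low-count peak of each library and rounded, Foxc1, Foxf2, Foxl2, Gata6 and Tbx15 were called higher among 6 members tested, against 9.51% of genes, and Gata3, Zic1, Tbx20 and Gli1 no longer passed the filter.

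The rest of the same families was listed for comparison: 112 genes, of which 111 were in the table and 42 were tested. There 10 rose and 1 fell, or 23.8% and 2.38% against the 6.28% and 4.02% of all tested genes, with a median log2 fold change of 0.55. Several kin that rose were near 0 in WT. Foxb2 stood at 5.46, 6.20 and 1.53 CPM in the Suz12 cKO libraries, against 0.274 CPM in WT replicate 1 only (edgeR adjusted p = 0.0389). Foxq1, on the same stretch of chromosome 13 as Foxf2 and Foxc1 (31558170 to 31560976), stood at 1.09, 1.90 and 2.55 CPM against 0.0996 CPM in WT replicate 1 only (adjusted p = 0.0385). Tfap2e had 29, 108 and 50 counts in Suz12 cKO but no WT count, a rise of at least 4.83-fold (adjusted p = 0.0284), and Zic4 is given above.

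The other called kin that are named here were above 1 CPM on average in WT. Sox4 averaged 9.08 ± 2.96 against 1.18 ± 0.705 CPM and Foxp4 27.9 ± 4.35 against 6.70 ± 1.45 CPM (edgeR adjusted p = 0.00698 and 9.8e-04). Foxo3, a forkhead factor of stress responses, averaged 42.4 ± 4.17 against 24.4 ± 2.15 CPM, Lyl1, a blood bHLH gene, 60.1 ± 4.01 against 29.8 ± 5.24 CPM, and the T-box gene Mga 89.6 ± 6.57 against 67.3 ± 7.6 CPM (edgeR adjusted p = 0.0041, 0.00325 and 0.0469). Foxm1, which drives genes of cell division, fell from 16.6 ± 1.33 to 4.81 ± 0.698 CPM (log2 fold change -1.79, edgeR adjusted p = 9.8e-04). Foxj2, Foxk1, Foxn2 and Foxp1 were among 31 tested kin not called.

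Partner and pathway genes were counted against the 6.28% of all tested genes called higher. Of 7 bHLH partner and inhibitor genes, 6 were tested and edgeR called 0, with 1 higher at an unadjusted p under 0.05 and 1 higher by DESeq2. The E protein gene Tcf4 averaged 41.8 ± 7.45 against 26.9 ± 5.36 CPM (edgeR adjusted p = 0.0567). Of 7 Gata cofactor genes 5 were tested, and 2 of them, Zfpm1 and Lmo2, rose by 0.83 and 0.47 on the log2 scale (edgeR adjusted p = 0.041 and 0.0322). Of 18 Hedgehog pathway genes 9 were tested and edgeR called 0, with 2 higher at an unadjusted p under 0.05 and 1 higher by DESeq2. The signal transducer Smo stood at 2.81, 1.32 and 1.41 CPM in the Suz12 cKO libraries, against 0.295 CPM in WT replicate 2 only (log2 fold change 4.61, edgeR adjusted p = 0.133), each Suz12 cKO library above each WT library. The receptor and target gene Ptch1 averaged 6.72 ± 1.20 against 4.23 ± 1.32 CPM (adjusted p = 0.224).

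Neighbouring genes were counted against all tested genes, and no difference in share was tested. The nearest annotated gene on each side of the 57 members that does not overlap them, members left out, gave 106 genes, of which 52 were tested. Of these edgeR called 1 higher (1.9%) and 2 lower, against 6.28% and 4.02% of all tested genes, and the median log2 fold change was 0.10. Next to the 15 tested members lay 15 tested neighbours, of which edgeR called 0 higher and 1 lower. At an unadjusted p under 0.05 there were 1 higher and 3 lower, and DESeq2 called 0 and 1. With overlapping genes added, edgeR called 1 higher (Zic4) and 1 lower of 17. Gmds, 8.95 kb from Foxc1, averaged 45.6 ± 4.74 CPM in Suz12 cKO and 42.7 ± 3.54 CPM in WT. Wars2, 19.1 kb from Tbx15, and Faim, 28.2 kb from Foxl2, had log2 fold changes of 0.38 and 0.13.

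Genes next to or overlapping a member varied. Foxl2os, a non-coding gene whose annotated span lies 0.3 kb from the Foxl2 start, averaged 20.2 ± 8.64 CPM in Suz12 cKO. Its lowest Suz12 cKO library was at 13.9 CPM. In the WT libraries it stood at 3.71, 1.77, 0 and 0 CPM (log2 fold change 3.85, SE 1.29, edgeR adjusted p = 0.0986). The Foxl2 window printed above fills most of the gap between Foxl2os and Foxl2. Zic4, which overlaps Zic1, was called with it. Arhgap9, which overlaps Gli1, was not called, and Neil2, 4.76 kb from Gata4, had a log2 fold change of 0.35 and was not called. Of 10 listed non-coding genes beside family members, 7 were in the table and 2 were tested, and the other, Foxd2os, stood at 0.0473, 0.0761 and 0.378 CPM in the Suz12 cKO libraries, against 0.639 to 1.44 CPM in WT (log2 fold change -2.47, adjusted p = 0.20). EdgeR called 0 of these 2, with 1 higher and 1 lower at an unadjusted p under 0.05 and 0 by DESeq2.

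**Figure D5:**
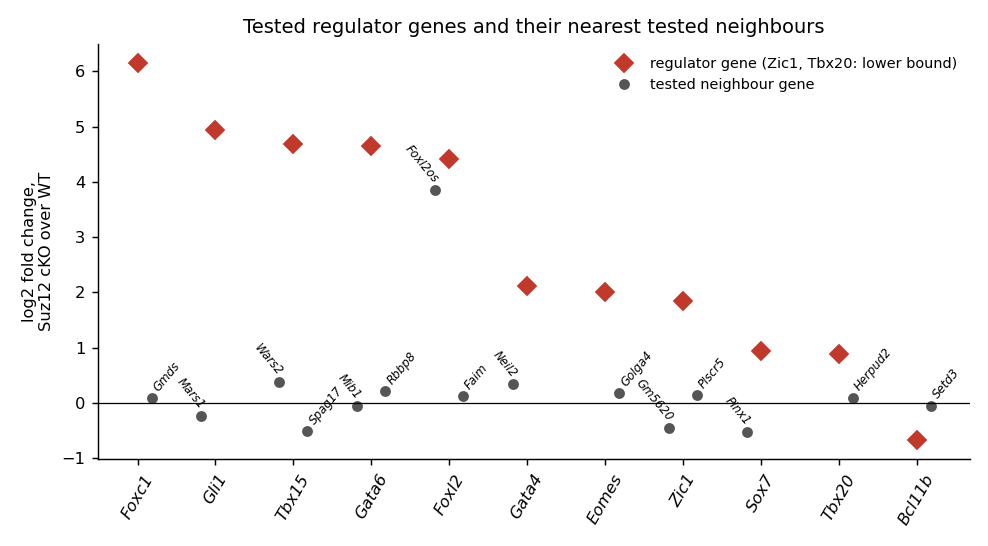
Log2 fold change of Suz12 cKO over WT (y axis) for the tested members that have a tested neighbour (red diamonds, lower bounds for Zic1 and Tbx20) and for those neighbours (grey dots, left and right of each member as on the chromosome). Genes that overlap a member are not drawn, and Foxl2os is the highest neighbour at 3.85.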

How the data were processed

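RNA-seq was analysed for alveolar macrophages of 4 WT and 3 Suz12 cKO chimeric mice. The authors deposited raw counts per gene, from featureCounts (version not given) on mm10, per the submitters' processing notes. No source used here gives the aligner, annotation, strand setting or treatment of reads with several matches. Libraries were single-end reads of 85 bp per the series' design text. The 7 files of single samples and the series table agreed in every count.

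Symbols came from RefSeq GRCm38.p6 by Entrez number (25275 of 27179 matched). Genes were filtered with filterByExpr (minimum count 10, minimum total 15, 14436 kept), scaled by TMM and compared with edgeR 4.0.16 in R 4.3.3 (quasi-likelihood test, genotype as the sole term, Benjamini-Hochberg adjustment over all tested genes). Calls are adjusted p-values under 0.05. DESeq2 1.42.0 was an alternative. The SE was taken as the size of the log2 fold change divided by the square root of F. Lower bounds use a floor of 48 counts over the WT libraries together, 3 times their highest low-count peak, a multiple set after the data were seen. Each bound is the pooled Suz12 cKO level over this floor. It allows for no counting error on the Suz12 cKO side and for no spread between mice. Reads carry no molecular identifiers.

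The members and lists were chosen with earlier results of these data known. Values were to be named for Suz12, for each tested member, for called kin and partner genes, and for up to 4 markers a list by level; Ptch1, Wars2, Faim, Gmds, Foxl2os, Foxd2os, Neil2, Arhgap9, single markers and the not-called kin were named after their values were seen, and a called kin gene is not reported here. Counts were also simulated for the Suz12 cKO against WT comparison (13849 genes). Of these, 52% of 99 genes changed 2-fold and 86% of 96 genes changed 4-fold were called, with 13 false calls among 147. The simulation did not model the low-count peaks, the split by tissue RNA or genes with no WT count. These rates may therefore not hold for the members. Promoter windows were checked against GENCODE transcripts: 32 of 35 end inside a transcript of their gene. Alternatives were other scaling, filters, dispersion, DESeq2, leaving out each library, a replicate block and, added after seeing the data, fits on tissue RNA and on counts divided by the low-count peak.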

Additional observations from a re-analysis of the deposited data

Results flagged for a closer look

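Among the 4 WT libraries, the highest library stood far from the other 3 for 5 of the 16 genes checked (Suz12 and the 15 tested members). Chance gives such a gap in about 1 of 20 groups of 4 for continuous values. That rate does not hold for 4 of the 5, where the other 3 libraries had no count and the gap is the whole range. Sox7 was at 9.21 CPM in WT replicate 1 and at most 3.94 CPM in the others. Gata4, Tbx3 and Eomes were at 0.41, 1.08 and 0.394 CPM in WT replicate 2 and had no count in the others. Gli1 was at 0.0681 CPM in WT replicate 3 and had no count in the others. The Suz12 cKO group has 3 libraries and was not checked in this way.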

How the results depend on the processing

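The rise of Foxc1 was called in every setting tried except within the 4 libraries low in tissue RNA (log2 fold change 5.51, adjusted p = 0.0515). The number of members called higher was 5, and leaving out single libraries gave 1 to 6. With a term for tissue RNA over all 7 libraries, a fit added after the data were seen, it was 6 of 15 tested. These were the same 5 and Foxl2 (edgeR adjusted p = 0.0472), against 1001 of 14436 genes called higher in that fit. The number of members called higher also fell in other settings. It was 3 with a minimum count of 30 (7 members tested), 3 with robust dispersion and 0 among the 4 low-tissue-RNA libraries, and 0 members were called lower in any setting. Over all genes, 906 called higher became 1393 with DESeq2 and 447 to 1515 without single libraries. The 580 called lower became 268 to 885 without single libraries, and 367 and 328 in the fits within low and within high tissue RNA libraries. Of kin genes, 10 called higher became 4 to 14 without single libraries, 5 within the low-tissue-RNA libraries and 6 with counts divided by the low-count peak. Kin called lower went from 1 to 2 within the libraries high in tissue RNA. Suz12 kept its call without each single library. Causes were not tested beyond the fewer libraries or genes in each fit.

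Tbx2 changed sign without Suz12 cKO replicate 2, WT replicate 3 or WT replicate 4 (-0.06, -0.16 and -0.14), with a term for tissue RNA (-0.16) and within the libraries high in it (-0.57). Tbx3 did so without Suz12 cKO replicate 2 or WT replicates 1, 3 or 4 (-0.52, -0.21, -0.21 and -0.21), with that term (-1.04) and within those libraries (-1.20), as did Eomes there (-1.34). Without single libraries the range was -0.16 to 0.60 for Tbx2 and -0.52 to 0.78 for Tbx3. Neither Tbx2, Tbx3 nor Eomes was called in any setting.

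With the replicate number as a block, members called higher were 3, kin called higher 5, and all genes 585 higher and 278 lower. Same-numbered libraries of the genotypes did not all deviate together (r = -0.041, 0.242 and 0.158 across genes), so the numbers are not taken as pairs. The low-count peak, at 7 to 30 counts, limits what can be said of members under about 0.42 CPM.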
